A study of Mus musculus with 8 samples.

Results

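Bpifa1, Wfdc2, Cyp2f2, Cyp2a5, Pigr, Muc13, Reg3g and Lypd8, genes that epithelia of the airways and the gut use for secretion and defence, were followed through the stromal cells of the mouse thymus. They were taken by symbol from the 55487 genes of the count table, and all 8 were found. The set was chosen by how the RNA counts of its genes were spread over cells and epithelial subtypes in these same samples, some in bursts in single cells and others at low counts in many. These counts are therefore given as a description and without a test.

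Thymic stroma of C57BL/6 mice aged 1 week or 16 weeks was depleted of CD45+ cells, and EpCAM1+ and EpCAM1- cells were sorted and mixed, with the EpCAM1+ cells in excess. RNA and 27 oligonucleotide-tagged surface reagents were then counted in the same cells (CITE-seq). Thymi of several mice were pooled at each age and 1 pool per age was loaded on 2 wells, so the spread between wells is that of capture and library preparation, and differences between mice were not measured.

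The 4 RNA libraries held 9953 cells, 1846 and 1430 at 1 week (wells 1 and 2) and 1939 and 4738 at 16 weeks, with 21281389 to 45480790 RNA molecules (unique molecular identifiers, UMIs) per library. Clustering without the 8 genes gave 6092 thymic epithelial cells (TEC), 2058 at 1 week and 4034 at 16 weeks, and 2147 fibroblasts. The median TEC held 8505 and 9363 UMIs in the 1-week wells and 6548 and 5887 in the 16-week wells. Cortical TEC (cTEC) were 73.0% of TEC at 1 week and 4.64% at 16 weeks, intertypical TEC (marked by Ccl21a, Krt5 and Krt14) 7.43% and 58.7%, and mature medullary TEC (mTEC) 10.6% and 29.8%. A level in all TEC therefore also moves with the mixture of subtypes. In 15 cases a barcode occurred in more than 1 library, which touched 35 cells, of which 18 were TEC. Without these cells the numbers of genes and tags past each limit used below were the same, and the changes of the 8 genes with age moved by no more than the spread between wells.

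Medullary TEC are known for transcribing genes that belong to other tissues, in part under the control of the regulator Aire, so that developing T cells meet the antigens of the body. Such a gene is typically on in few cells at a time, and some mTEC take up whole programmes of another epithelium and are known as mimetic cells. Bpifa1 and Wfdc2 are secreted proteins of the airway lining, Cyp2f2 and Cyp2a5 are cytochrome P450 enzymes of club cells and of olfactory and liver tissue, Pigr carries antibodies of the IgA class across epithelia, Muc13 is a membrane mucin, and Reg3g and Lypd8 keep bacteria off the intestinal wall.

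All 8 genes are protein-coding in the GENCODE M21 annotation of GRCm38. Bpifa1 lies at chr2:154142880-154149219 and Wfdc2 at chr2:164562413-164568510. The P450 genes share a region of chromosome 7, with Cyp2a5 at chr7:26835305-26843548 and Cyp2f2 at chr7:27119909-27133660. Pigr lies at chr1:130826684-130852249, Muc13 at chr16:33794037-33819934 and Lypd8 at chr11:58379043-58390728. Reg3g, at chr6:78466269-78468872, is the one gene of the set on the reverse strand. For 7 of the 8 genes, all but Lypd8, relatives were examined, and none of these 7 shared a stretch of 100 bases with its relative within the last 500 bases of the transcript. The relatives included Cyp2a4 for Cyp2a5 (21 UMIs in TEC against 4038) and Reg3b for Reg3g (594 against 15931).

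Promoter windows of 250 bases before the transcription start were available in RefSeq (GRCm38.p6) for all 8 genes, 11 windows in all. Printed here are those of Bpifa1, Cyp2a5 and Reg3g, whose UMIs lay in few cells and whose windows held most of the motif matches, and those of Cyp2f2 and Wfdc2, the genes with the lowest share of UMIs in their highest cells. They are written 5′ to 3′ on the strand of the gene, with motifs in capitals. The starts are those of RefSeq, which differ in part from GENCODE. By the GENCODE positions above, the Wfdc2 window lies within the gene, and the Cyp2a5 and Cyp2f2 windows run into it. The windows are chr2:154142630-154142879 (Bpifa1, forward strand), chr7:26835089-26835338 (Cyp2a5, forward), chr6:78468875-78469124 (Reg3g, reverse), chr7:27119705-27119954 (Cyp2f2, forward) and chr2:164562465-164562714 (Wfdc2, forward, 1 of 2 windows that start 1 base apart).
Bpifa1: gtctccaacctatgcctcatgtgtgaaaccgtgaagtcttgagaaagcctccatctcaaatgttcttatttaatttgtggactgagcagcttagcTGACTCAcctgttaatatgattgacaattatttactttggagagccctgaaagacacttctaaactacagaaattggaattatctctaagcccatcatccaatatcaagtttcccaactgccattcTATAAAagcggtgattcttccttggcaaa
Cyp2a5: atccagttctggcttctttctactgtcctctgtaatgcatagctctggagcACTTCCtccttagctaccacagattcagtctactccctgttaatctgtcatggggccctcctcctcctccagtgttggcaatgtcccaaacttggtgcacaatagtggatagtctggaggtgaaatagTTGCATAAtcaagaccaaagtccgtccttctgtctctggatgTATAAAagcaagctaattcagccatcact
Reg3g: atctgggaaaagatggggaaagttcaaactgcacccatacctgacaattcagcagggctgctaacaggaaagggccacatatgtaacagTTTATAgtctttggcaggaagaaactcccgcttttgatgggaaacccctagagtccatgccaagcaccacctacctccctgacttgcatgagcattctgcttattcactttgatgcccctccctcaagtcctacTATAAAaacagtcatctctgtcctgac
Cyp2f2: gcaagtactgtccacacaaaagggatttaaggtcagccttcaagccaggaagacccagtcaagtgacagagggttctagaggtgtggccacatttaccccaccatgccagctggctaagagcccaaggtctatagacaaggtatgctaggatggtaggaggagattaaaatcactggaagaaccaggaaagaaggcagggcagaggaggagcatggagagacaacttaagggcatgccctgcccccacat
Wfdc2: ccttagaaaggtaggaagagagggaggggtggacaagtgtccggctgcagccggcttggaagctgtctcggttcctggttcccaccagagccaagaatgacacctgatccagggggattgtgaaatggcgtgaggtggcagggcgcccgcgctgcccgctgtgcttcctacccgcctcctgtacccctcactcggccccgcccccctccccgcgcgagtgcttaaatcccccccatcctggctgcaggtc

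A set of 5 motifs was searched on both strands. TATAAA, the TATA box, stood 29 bases before the start in Bpifa1 and Cyp2a5 and 27 bases before it in Reg3g, which also held it on the other strand 161 bases upstream. It was absent from the windows of Wfdc2, Pigr, Cyp2f2, Muc13 and Lypd8, and 12.4% of all 32851 promoter windows held it. The AP-1 motif TGANTCA was in the windows of Bpifa1 (155 bases upstream) and Muc13 and in 6.75% of all windows. GGAAGT, an ETS motif, was found on the other strand in Cyp2a5 (199 bases upstream) and Lypd8 and in 19.7% of all windows. The C/EBP motif TTGCNNAA was found in Cyp2a5, 71 bases upstream, and in 9.56% of all windows, while the forkhead motif TGTTTAC was in none of the 11 windows and in 3.17% of all. These matches describe the letters of the windows.

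Levels are the UMIs of a gene over all UMIs of the cells on the counts-per-million scale (CPM). The question of how these genes were used by TEC was first put to the 16-week cells. For 7 of the 8 genes the highest 1% of TEC held over 50% of the UMIs, on top of a low count in many other cells, and for Cyp2f2 they held less. Of all 22917 genes with at least 10 UMIs in these cells 41.5% passed the same limit, which a gene with few UMIs passes through its low count alone, and of the 9321 genes with at least 500 UMIs, a limit set after seeing the data that all 8 genes meet, 2.64% did. This count rested on well 2, where all 8 passed 50%, while in well 1 Cyp2a5 (49.3%), Reg3g (48.4%), Wfdc2 (44.8%) and Cyp2f2 (37.6%) did not and 4 genes passed. The highest 1% of the 4034 TEC, 40 cells, held 85.1% of the Bpifa1 UMIs, 78.9% of Lypd8, 70.4% of Muc13, 66.5% of Reg3g, 65.5% of Cyp2a5, 62.8% of Pigr, 55.0% of Wfdc2 and 47.3% of Cyp2f2. The median over the 8 genes was 66%, beside a median over all genes of 25.0% in well 1 and 30.8% in well 2. Without 16-week well 2 the median of the 8 was 54.0%, and without 16-week well 1 it was 70.2%. After each cell was thinned to 2000 UMIs, the lowest depth in the table, the median of the 8 was 50%.

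Put as a number of cells, 50% of all Bpifa1 UMIs lay in 3 cells, of Lypd8 in 5, of Reg3g in 9, of Muc13 in 14, of Cyp2a5 in 16, of Pigr in 25, of Wfdc2 in 26 and of Cyp2f2 in 47. The curves of summed UMIs against ranked cells show these as separate shapes, with Bpifa1 and Lypd8 steep from the first cells. Over the highest 10 cells the curve reached 78.5% for Bpifa1 and 63.4% for Lypd8, but 36.6% for Wfdc2, 32.4% for Pigr and 28.0% for Cyp2f2.

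**Figure D1:**
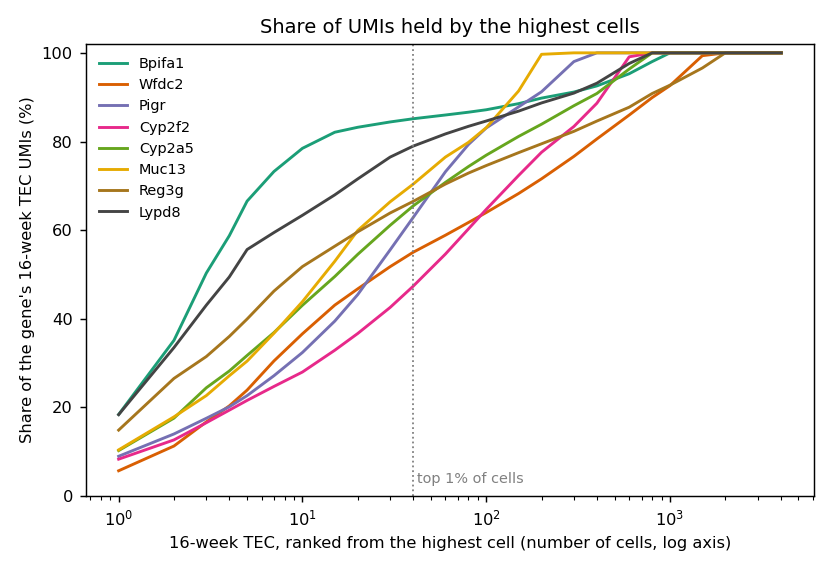
Cumulative share of each gene's UMIs (y axis, percent) against 16-week TEC ranked from the highest cell of that gene (x axis, number of cells, log scale), both wells together. The dotted line marks the top 1% of cells (40 of 4034), at which the curves run from 47.3% for Cyp2f2 to 85.1% for Bpifa1.

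Outside these cells the genes were seen mostly as a single UMI. Bpifa1 was detected in 943 of the 4034 cells, and 752 of these (79.7%) held 1 UMI, 167 held 2 to 9, and 24 held 10 or more. The 24 cells with 10 or more, called rich cells hereafter, held 83.8% of the Bpifa1 UMIs. Cyp2f2 had 617 positive cells, of which 406 held 1 UMI and 33 were rich, and the rich cells held 44.1% of its UMIs. Wfdc2 was detected in 1547 cells, 55.3% of them with 1 UMI, and Reg3g in 1943, 56.6% of them with 1 UMI. Rich cells numbered 81 for Wfdc2, 103 for Reg3g, 51 for Cyp2a5, 40 for Lypd8, 38 for Pigr and 16 for Muc13.

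A few single cells gave up to 8.71% of their RNA to one gene. The median share in rich cells of all wells ran from 0.0411% (Wfdc2) to 0.327% (Bpifa1). The highest Bpifa1 cell, in 16-week well 1, held 1340 Bpifa1 UMIs, which were 6.96% of its 19253 UMIs and 61.6% of all Bpifa1 UMIs counted in the TEC of that well. In well 2 the highest cells held 1217 and 1104, and a cell with 613 Bpifa1 UMIs gave 8.71% of its RNA to this gene. The highest Reg3g cell held 1927 UMIs (5.43% of the cell) together with 826 of Lypd8 and 45 of Muc13. Lypd8 reached 826 UMIs in that same cell and 680 in well 1, Wfdc2 reached 423 (5.73% of a cell), Cyp2a5 372 and Cyp2f2 159. Pigr and Muc13 reached their highest values, 140 and 74, in 1 cell of 1-week well 2.

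The subtypes were then compared at 16 weeks, by RNA clusters made without the 8 genes and named from marker lists. Of the 8 genes, Lypd8 (85.7%), Cyp2a5 (78.1%), Reg3g (71.8%), Muc13 (67.4%) and Pigr (61.9%) had over 50% of their TEC UMIs in mature mTEC, as had 27.6% of all genes. Wfdc2 (18.7%), Bpifa1 (14.3%) and Cyp2f2 (6.13%) did not. For Bpifa1 and Wfdc2 this depended on the clustering. With 20 in place of 10 neighbours mature mTEC held 88.5% of the Bpifa1 UMIs, 65.9% of the Wfdc2 UMIs and 35.5% of the Cyp2f2 UMIs. Most UMIs of Bpifa1, and the largest share of those of Wfdc2, came instead from 1 unnamed cluster, and most Cyp2f2 UMIs (59.5%) came from intertypical TEC. When mature mTEC were gated by surface tags alone (UEA1, MHCII and CD80 high), a gate that took 121 and 340 cells of the 16-week wells against 327 and 874 by RNA, none of the 8 had over 50% of its UMIs in the gate. The 27.6% of all genes applies to the RNA class, and no such share stands beside the smaller gate.

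The unnamed cluster had 85 cells, 3 and 6 at 1 week and 17 and 59 at 16 weeks. After Bpifa1 its leading genes were Ltf, which encodes the antimicrobial protein lactoferrin, and Spink5, Sbsn and Krtdap of cornified epithelium. It carried 5 of 8 keratinocyte, 4 of 6 ciliated cell, 4 of 6 neuroendocrine, 5 of 10 mature mTEC and 4 of 7 intertypical markers, and of the 6 airway and lung markers Scgb1a1, so no name was given to it. At 16 weeks it made up 1.88% of TEC and held 74.2% of the Bpifa1 UMIs and 48.2% of the Wfdc2 UMIs. Bpifa1 stood at 5168 and 4444 CPM in it (wells 1 and 2), yet 6 of 17 and 24 of 59 of its cells were positive. In well 1 a single cell gave 1340 of the 1357 Bpifa1 UMIs of the cluster. Without the 2 and 8 cells of at least 10 UMIs Bpifa1 was at 22.0 and 25.6 CPM in it. Beside this stand 15.8 in fibroblasts of both wells, 24.8 and 27.3 in endothelial cells and 45.7 and 44.9 in mural cells. Wfdc2 stood at 2369 and 3241 CPM, with 13 of 17 and 42 of 59 cells positive. Cyp2f2 was at 168 and 624 CPM there, and Pigr at 381 and 255.

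**Figure D2:**
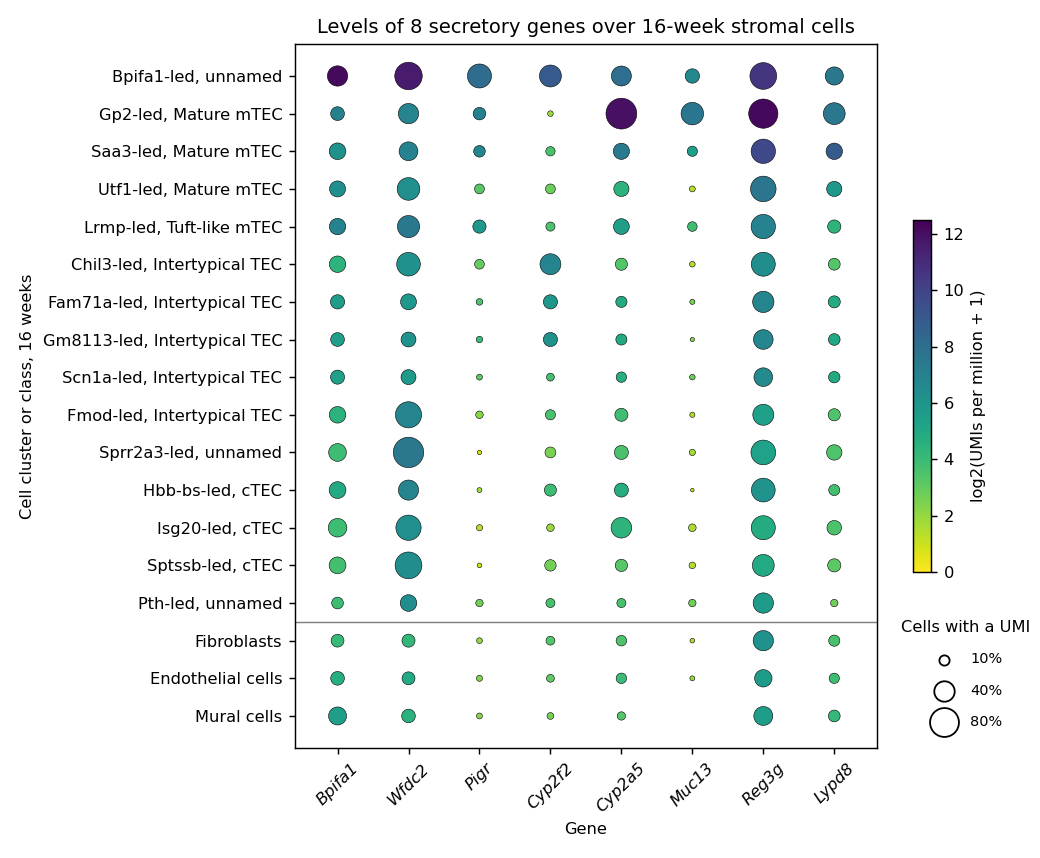
Level and detection of the 8 genes over 15 TEC clusters and 3 other stromal classes at 16 weeks, wells together. Colour is log2(CPM + 1) and dot area the share of cells with a UMI, with no dot where no UMI was counted. The Bpifa1-led cluster is darkest for Bpifa1 and Wfdc2 and the Gp2-led cluster for Cyp2a5 and Reg3g, while faint small dots recur in most other clusters and in fibroblasts.

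A cluster of 35 mature mTEC led by Gp2, Ccl6 and Ccl20 carried 7 of 7 markers of microfold cells, the antigen-sampling cells of the gut, and 6 of 8 of enterocytes and hepatocytes. With 8 and 25 cells in the 16-week wells it held 13.4% of the Cyp2a5 UMIs of TEC in well 1 and 48.1% in well 2. Cyp2a5 stood at 1722 and 4377 CPM in it and was positive in 6 of 8 and 24 of 25 cells. In the Saa3-led cluster, the largest of mature mTEC with 226 and 611 cells in the 16-week wells, Cyp2a5 was at 148 and 173. Reg3g was at 2704 and 5192 CPM in the Gp2-led cluster and at 452 and 1054 in the Saa3-led cluster, and both well ranges of the Gp2-led cluster lay above those of the Saa3-led one. In well 2 a single cell gave 1510 of the 1700 Reg3g UMIs of the Gp2-led cluster, and in well 1 a single cell gave 124 of 135. Cyp2f2 had 0 and 1 UMI in it, or 2.65 CPM over both wells with an exact 95% interval of 0.0671 to 14.8, so a difference from the 11.2 CPM of the Saa3-led cluster was not detectable at this depth.

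Lypd8 was highest in the Saa3-led cluster, at 755 and 368 CPM, which held 76.6% of its UMIs. These levels were carried by 8 of 226 and 19 of 611 cells with at least 10 UMIs, which gave 94.7% and 85.7% of the UMIs, and without them Lypd8 was at 44.6 and 57.1 CPM. Pigr was at 139 and 103 CPM there, and in the Bpifa1-led cluster it was positive in 11 of 17 and 31 of 59 cells, a broader pattern than in the Saa3-led cluster, where 37 of 226 and 71 of 611 cells were positive. Muc13 was at 38.6 and 48.0 in the Saa3-led cluster and at 80.1 and 211 in the Gp2-led cluster, where 4 and 69 UMIs were counted.

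Intertypical TEC held most of the Cyp2f2 UMIs. Cyp2f2 was at 52.5 and 58.7 CPM in 16-week intertypical TEC against 8.76 and 8.64 in mature mTEC, and the wells did not overlap. A Chil3-led intertypical cluster of 93 and 203 cells in the 16-week wells, with Ccl11, Ccl21a and Krt14 among its leading genes, held 31.6% of the Cyp2f2 UMIs. Cyp2f2 was at 84.7 and 131 CPM there, with 30 of 93 and 94 of 203 cells positive, and 17 of the 33 rich cells were in it. Of the remaining rich cells 12 were in the Bpifa1-led cluster.

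To set bursts against broad low expression, the share of cells with a UMI was compared with the share that would hold one if the same UMIs had been spread over the cells by depth alone. In mature mTEC of 16 weeks Lypd8 was positive in 25.4% and 25.2% of cells (wells 1 and 2), where spreading would give 90.7% and 74.3%. Cyp2a5 was positive in 26.3% and 26% against 56.4% and 78.7%, Pigr in 15.3% and 10.8% against 47.9% and 41.1%, and Reg3g in 63.9% and 57.2% against 86.5% and 97.6%. Cyp2f2 came close to the spread value in mature mTEC, with 10.7% and 7.67% against 10.3% and 8.27%, whereas in intertypical TEC it was positive in 19.0% and 18.5% against 33.3% and 33.7%.

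A positive mature mTEC held on average 22.1 and 9.15 Lypd8 UMIs, 6.97 and 15.7 of Reg3g, 4.98 and 10.6 of Cyp2a5, 6.20 and 6.38 of Pigr and 3.63 and 3.68 of Muc13. These 5 of the 8 genes had at least 3 UMIs per positive cell in both wells, as did 5.68% of 20136 genes. Wfdc2 (4.27 and 2.50) and Bpifa1 (6.01 and 2.31) did so in well 1, and Cyp2f2 (1.09 and 1.18) in neither. Thinned to 2000 UMIs per cell none of the 8 reached 3 UMIs per positive cell, and in the tag gate 3 did. The 5.68% applies to unthinned mature mTEC by RNA, and no share of all genes stands beside these 2 counts.

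**Figure D3:**
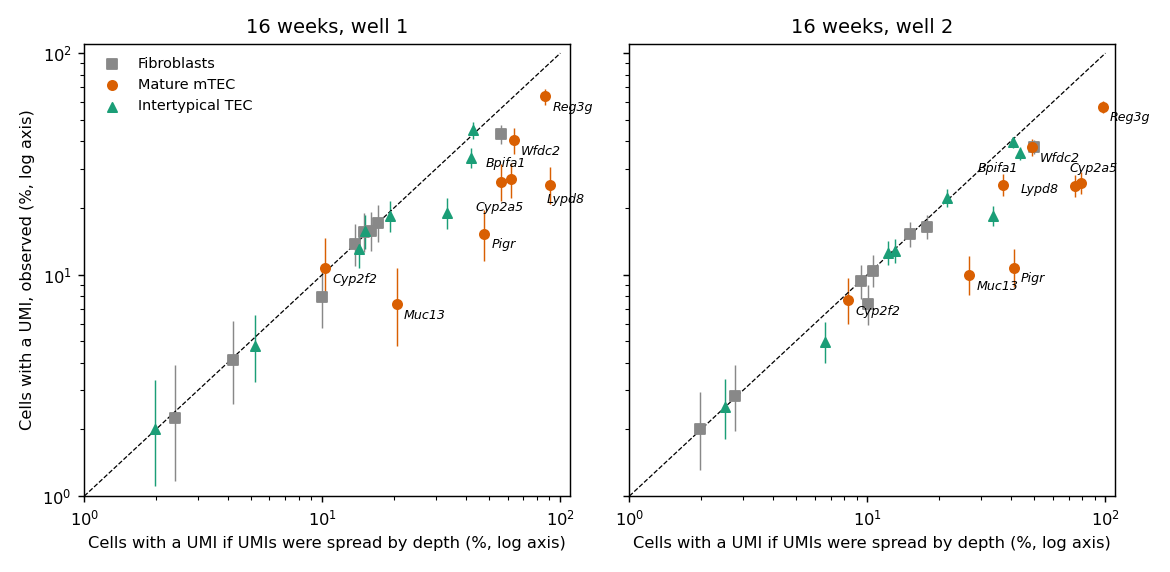
Observed share of cells with a UMI (y axis, percent, log scale) against the share if the same UMIs were spread over cells by depth (x axis, percent, log scale) for the 8 genes in 3 cell classes of the 16-week wells. Bars are exact 95% binomial intervals of counting error and the dashed line marks equality. Most fibroblast points lie on the line, and the mature mTEC points lie below it in both wells except that of Cyp2f2, which lies close to it.

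Fibroblasts gave the level of these genes in cells of another lineage from the same wells, in which free RNA of the cell suspension is also counted. At 16 weeks the fibroblast level was 9.47% and 8.59% of the TEC level for Bpifa1, 10.0% and 9.61% for Wfdc2, 9.89% and 7.31% for Pigr and 8.87% and 11.9% for Lypd8. Epcam, an epithelial surface gene, was at 8.53% and 8.84% by the same measure, Krt5 at 7.86% and 8.92% and Krt8 at 9.23% and 9.25%. Over 8 such TEC genes the values ran from 5.64% to 22.4%. Cyp2f2 was above this range in well 1 and within it in well 2 (26.8% and 19.0%), as were Cyp2a5 (25.0% and 8.73%), Muc13 (23.0% and 10.7%) and Reg3g (40.2% and 19.5%).

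The single UMIs in TEC are to be read beside these values. Bpifa1 was detected in 17.1% and 15.2% of 16-week fibroblasts, and spreading its UMIs by depth gave 17.1% and 15.2% as well. Thinned to 2000 UMIs, 8.97% and 9.17% of mature mTEC and 4.0% and 3.90% of fibroblasts held Bpifa1, and median depths at 16 weeks were 6482 UMIs in mature mTEC and 11233 in fibroblasts. Reg3g thinned in the same way was in 30.5% and 29.4% of mature mTEC and in 14% and 11.9% of fibroblasts. Cyp2f2 was in 8.34% and 8.69% of intertypical TEC and in 2.05% and 2.12% of fibroblasts. Wfdc2 was in 13.5% and 13.2% of 1-week cTEC and in 5.13% and 3.92% of 1-week fibroblasts. In each of these pairs, taken in a TEC class where the gene was high, the TEC share was more than 2 times the fibroblast share in both wells. This did not hold for every class. In 16-week cTEC Bpifa1 was in 2.54% and 6.85% of cells and Reg3g in 15.4% and 11%, so that Bpifa1 in well 1 and Reg3g in well 2 lay below the fibroblast share. Cyp2f2 in 16-week mature mTEC, at 2.42% and 2.16%, was close to the fibroblast share. For Bpifa1 other lineages came closer to mature mTEC than fibroblasts did, apart from mesothelium. Thinned in the same way, Bpifa1 was in 8.35% and 9.28% of 16-week mural cells (26 and 64 cells). It was in 8.79% and 16.2% of haematopoietic cells (15 and 31), 5.44% and 7.15% of endothelial cells and 0.725% of mesothelium (15 cells, well 2).

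When the rich cells of a gene were left out, the median of the 8 fibroblast levels went from 13.6% to 35.7% of the TEC level. Bpifa1 was then at 24.0 and 31.6 CPM in 16-week TEC, beside 15.8 in fibroblasts of both wells. Endothelial cells, with no Bpifa1-rich cell, were at 24.8 and 27.3, and mural cells, also with none, at 45.7 and 44.9. Haematopoietic cells were at 24.0 and 34.6, and mesothelium of well 2 at 6.1 from 1 UMI. Without its rich cells Lypd8 was at 22.3 and 24.4 in TEC, beside 13.7 and 10.6 in fibroblasts. It was at 14.6 and 13.3 in endothelial and 22.8 and 13.7 in mural cells. Fibroblasts held rich cells too, 15 for Reg3g, 3 for Cyp2f2 and 1 for Wfdc2, and the highest of them had 148 Reg3g UMIs. For Reg3g fewer fibroblasts were positive than spreading by depth gave, 43.2% and 37.7% against 56.5% and 50.1%. The part of free RNA in these counts was not tested.

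The ages were compared over all TEC. Cyp2f2 was at 0.513 and 0.343 CPM in the 1-week wells, from 12 and 6 UMIs, and at 32.7 and 53.3 in the 16-week wells, a ratio of the means of 101. Bpifa1 was at 7.22 and 1.49 at 1 week and at 167 and 183 at 16 weeks (40.2-fold). Lypd8 was at 11 and 6.92 and then at 154 and 89.4 (13.6-fold). Cyp2a5 was at 11.5 and 8.52 and then at 49.2 and 107 (7.83-fold), and Reg3g at 93.1 and 46.2 and then at 196 and 374 (4.09-fold). In these 5 genes both 16-week wells lay at least 2-fold above both 1-week wells. At 1 week the fibroblasts came close to or above TEC for some genes. The fibroblast level was then 75.8% and 130% of the TEC level for Bpifa1, 132% and 11.9% for Pigr and 203% and 9.35% for Muc13, beside 9.46% to 37.8% for the same 8 TEC genes. The ratios of Bpifa1, and those of Pigr and Muc13 against well 1, thus have a 1-week TEC level near that of another lineage below them.

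Among all 24691 genes with at least 10 UMIs in TEC, 18.4% were at least 2-fold higher at 16 weeks by that rule and 3.79% lower, and none of the 8 was lower. Scaled by TMM factors, 4 of the 8 passed the rule, and 4 passed it with equal weight for each cell. Reg3g, whose lower 16-week well was 2.10 times its higher 1-week well, lost the call both times, with differences of 1.81 and 0.86 on the log2 scale in place of 2.03. Wfdc2 was at 89.1 and 87.3 CPM at 1 week and at 147 and 197 at 16 weeks (1.95-fold), with wells apart but less than 2-fold. For Pigr the wells were 2.18 and 18.5 against 35.7 and 36.1 (3.47-fold), and for Muc13 they overlapped, with 1.15 and 8.86 against 8.67 and 17.7 (2.63-fold). Both rested on 1-week well 2, where 1 cell held 140 Pigr and 74 Muc13 UMIs. Without that well the differences were 4.04 for Pigr and 3.51 for Muc13 on the log2 scale, in place of 1.79 and 1.4, and 7 of the 8 genes passed the rule. Without 1-week well 1 they were 0.96 and 0.57. The difference of Bpifa1 was 6.88 without 1-week well 1, 4.60 without 1-week well 2 and 5.33 with all wells, that of Cyp2a5 was 2.30 without 16-week well 2 and 2.97 with it, and that of Reg3g was 2.62 without 1-week well 1 and 2.03 with it. Without 16-week well 2 that of Muc13 was 0.79.

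**Figure D4:**
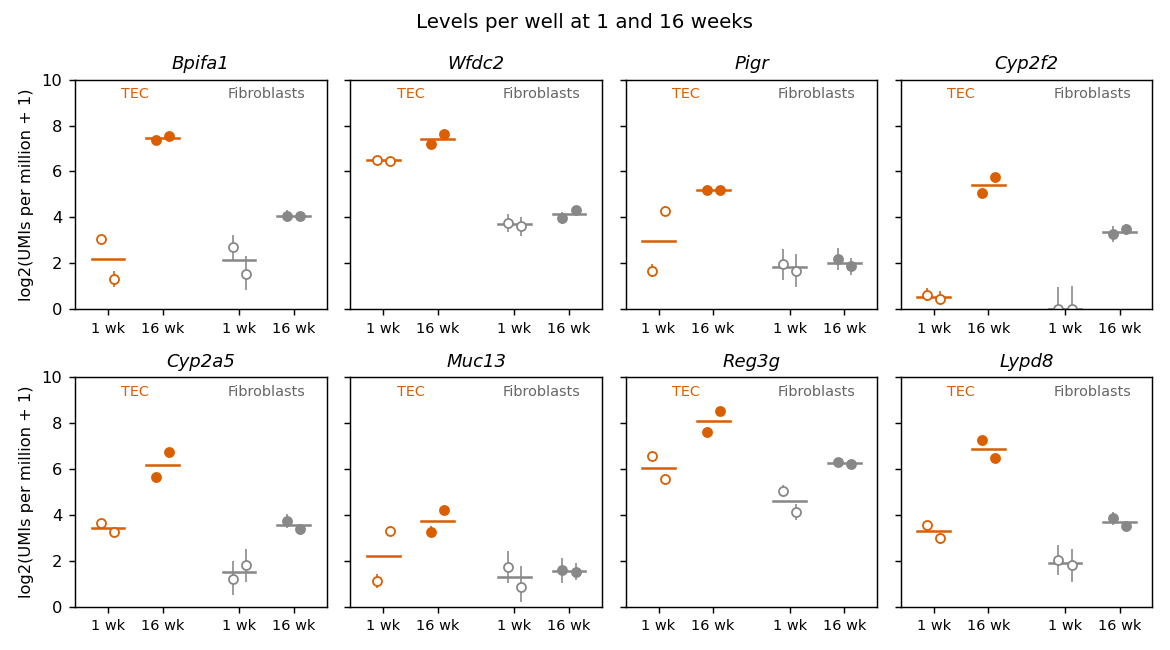
Level of each gene in TEC (orange) and fibroblasts (grey) of the 4 wells, as log2(CPM + 1), with open points at 1 week, filled points at 16 weeks, exact 95% Poisson intervals of counting error as bars and the mean of both wells as a line. TEC of both 16-week wells lie above those of both 1-week wells for every gene but Muc13, and fibroblasts of 16 weeks lie above those of 1 week for every gene but Pigr and Muc13.

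The mixture of subtypes and the rich cells moved with age, and their values stand beside these changes. TEC rich in at least 1 of the 8 genes were 5.73% and 4.10% at 1 week and 6.69% and 6.24% at 16 weeks. The genes differed in this. Wfdc2-rich cells were 4.4% and 2.34% of TEC at 1 week and 2.4% and 1.85% at 16 weeks, Reg3g-rich cells 0.913% and 1.06% and then 2.49% and 2.58%, Bpifa1-rich cells 0.166% and 0% and then 0.772% and 0.523%, and Cyp2f2-rich cells 0% in both 1-week wells and then 0.600% and 0.907%. Without the rich cells of a gene the difference between ages was 3.03 for Bpifa1 on the log2 scale (5.33 with them), 2.46 for Lypd8 (3.77), 1.98 for Cyp2a5 (2.97) and 5.91 for Cyp2f2 (6.65). The difference of Wfdc2 was 0.06 without its rich cells and 0.97 with them. Without their rich cells each of the other 7 genes passed the 2-fold rule, and no share of all genes stands beside this count. For Reg3g fibroblasts moved alike. They were at 32.1 and 16.6 CPM at 1 week and 78.6 and 73.0 at 16 weeks. TEC without Reg3g-rich cells were at 35.5 and 23.4 and then at 82.2 and 86.0. At 1 week 83.6% of the Wfdc2 UMIs were in cTEC, which held 85.6% of all TEC UMIs of that age, and 69 of its 154 rich cells at both ages were cTEC, 51 of them in an Isg20-led cluster with a median of 31998 UMIs per cell.

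Within the Saa3-led mature mTEC cluster alone, which had 67 and 52 cells at 1 week, none of the 8 genes passed the 2-fold rule, as 1.39% of 18858 genes did upwards and 1.29% downwards. The differences there were 2.13 for Lypd8, 1.59 for Bpifa1, 1.31 for Cyp2f2, 0.69 for Cyp2a5 and 0.20 for Wfdc2 (log2), and the signs of Pigr (-0.51), Muc13 (-0.81) and Reg3g (-0.28) were turned. Reg3g was at 1640 and 185 CPM there at 1 week and at 452 and 1050 at 16 weeks, since 1 cell of 1-week well 1 held 753 UMIs. In the 5 clusters with enough cells at both ages, Bpifa1, Cyp2a5 and Cyp2f2 were each higher in both 16-week wells in 4, Lypd8 in 3, Pigr and Reg3g in 2 and Wfdc2 in 1, while Muc13 was higher in 0 and lower in 1. These calls ask that the wells of the ages lie apart at counts that are not very low, without the 2-fold limit. No share of all genes stands beside them. In a Fam71a-led intertypical cluster Cyp2f2 was at 5.28 and 2.76 CPM at 1 week, from 2 and 1 UMIs, and at 57.3 and 57.0 at 16 weeks. No Cyp2f2 UMI was counted in the 192 and 183 fibroblasts of 1 week, with an exact 95% upper limit of 0.962 CPM in well 1, and 57 and 134 UMIs in those of 16 weeks.

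The genes were also compared cell by cell, to see which shared their rich cells. Of 361 TEC rich in any of the 8, 281 were rich in 1 gene, 45 in 2 and 35 in 3 or more, with a highest number of 6. All 18 Muc13-rich cells were rich in another of the 8 as well, 14 in Reg3g, 12 in Lypd8 and 9 in Pigr. For Bpifa1, 17 of 26 rich cells (65.4%) were rich in another, and 11 (42.3%) in Wfdc2, which is 7.14% of the Wfdc2-rich cells, while 2.36% of the TEC not rich in Bpifa1 were rich in Wfdc2. Cyp2f2 shared 13 of its 33 rich cells with Wfdc2 and 7 with Bpifa1, while 2.33% and 0.314% of the TEC not rich in Cyp2f2 were rich in these. It shared none with Cyp2a5, Muc13 or Lypd8, in which 0.941%, 0.297% and 0.743% of those other TEC were rich. At such low shares 33 cells cannot show a separation. Lypd8 shared 20 of 45 with Reg3g (44.4%, and 16.3% of the Reg3g-rich cells). Cyp2a5 shared 18 of 57 with Reg3g.

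**Figure D5:**
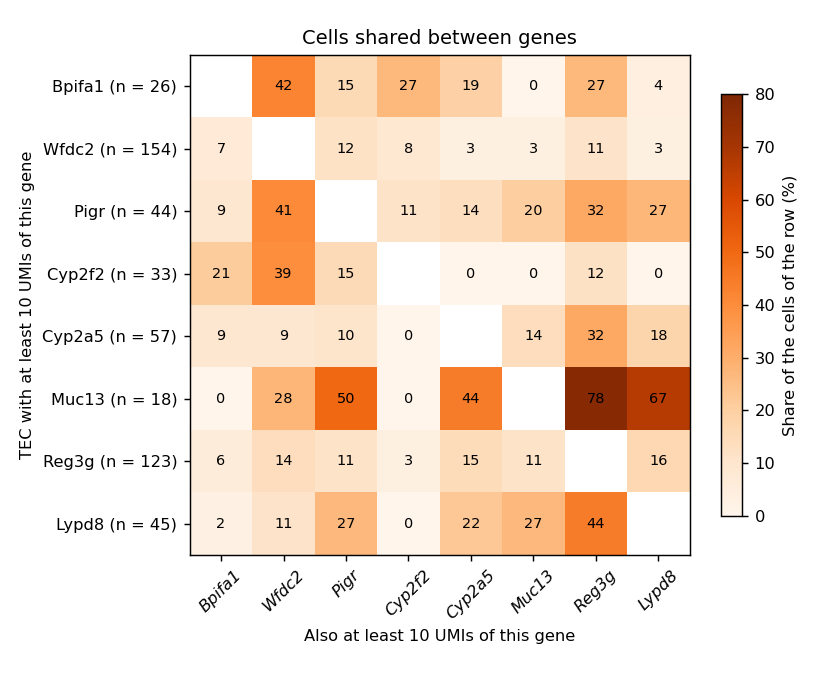
Share of the TEC with at least 10 UMIs of the gene in a row (number in parentheses, all 4 wells) that also held at least 10 UMIs of the gene in a column, in percent. The row of Muc13 is darkest at Reg3g (77.8%) and Lypd8 (66.7%), and the rows of Bpifa1, Pigr and Cyp2f2 are darkest at Wfdc2.

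Rich cells were deep cells. Their median depth ran from 16001 UMIs (Pigr) to 33420 (Wfdc2), beside 6717 over all TEC, and a cut at 10 UMIs is passed more easily by a deep cell. Of 390 cells of any class rich in a member of the set, 3 (0.769%) were among the 253 of 9953 cells removed as doublets (2.54%). The median doublet score was 0.0536 in rich TEC and 0.0404 in other TEC. The 24 Bpifa1-rich cells of the older mice held no UMI of the T cell genes Cd3e, Cd4 and Cd8a. These were in only 2.29%, 1.62% and 3.99% of other TEC, so 24 cells cannot show a lack of them. The blood cell gene Ptprc was in 2 of the 24 (8.33%) against 3.07%, and Coro1a in 45.8% against 20.5%. Thinned to 2000 UMIs per cell, Ptprc was in 1.07% against 1% and Coro1a in 13% against 6.49%. Lck and Tyrobp were then lower, in 0.334% against 1.54% and in 0.433% against 0.747%.

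What else the rich cells expressed was compared after thinning to 2000 UMIs, at 16 weeks. In Bpifa1-rich cells H2-Aa, a class II MHC gene, was found in 93% against 97.5% of other TEC, and Aire in 34.3% against 36.6%. The lung gene Sftpc was in none of the 24 cells, but it was in only 0.292% of other TEC. The club cell gene Scgb1a1 was in 5.75% against 2.36%. The tight junction gene Cldn3 was found in 30.4% of Bpifa1-rich cells against 6.25% of other TEC, and Cldn4 in 25.6% against 6.90%. In Cyp2f2-rich cells Ly6a, which encodes Sca1, was found in 95% against 61.6%, Aire in 14.9% against 36.8%, and Gp2 in none of 33 against 2.33%. Of the airway and lung markers Scgb3a2 was in 9.85% of Cyp2f2-rich cells against 0.165% and Scgb3a1 in 3.34% against 0.501%. Scgb1a1 was in 1.62% against 2.39%, and Sftpc, Sftpb and Sftpa1 were in none.

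Cyp2a5-rich cells carried markers of microfold cells, with Tnfaip2 in 40% against 10.4% of other TEC, Tnfrsf11b in 35.4% against 6.81%, Spib in 32.1% against 9.12%, Ccl20 in 31.0% against 5.66%, Ccl9 in 29.1% against 2.38% and Gp2 in 16.3% against 2.13%. Muc13-rich cells carried markers of enterocytes and hepatocytes, with the apolipoprotein genes Apoa4 in 45.4% against 4.18% and Apoc3 in 36.8% against 2.31%, the adhesion gene Cdh17 in 33.2% against 2.10% and Vil1, a gene of the brush border, in 23.0% against 1.28%. The transcription factor gene Hnf4a was in 6.34% against 0.188%. Markers of microfold cells were raised in Muc13-rich cells too, with Ccl20 in 49.6% against 5.81% and Tnfaip2 in 30.5% against 10.7%. Tnfrsf11b was in 26.2% of them against 7.09%, Spib in 22.6% against 9.36% and Gp2 in 15.4% against 2.26%. Cyp2a5-rich cells in turn held Cdh17 in 17.5% against 2.03% and Apoa4 in 16.1% against 4.19%, so these lists did not set Cyp2a5-rich and Muc13-rich cells apart. In Lypd8-rich cells Cdh17 was in 21.8% against 2.03% and Vil1 in 16.6% against 1.22%. Csn2, a milk protein gene on the list of mature mTEC markers, was in 62.8% of Lypd8-rich and 56.3% of Reg3g-rich cells against 27.2% and 26.8% of other TEC.

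Genes with a pattern like that of each member were sought by Spearman correlation over 16-week mature mTEC, 327 and 874 cells, among 11361 genes. Values were divided by cell depth, and the cells of a well share a library. The gene most like Muc13 was Ceacam20 (mean rho of both wells 0.352), an adhesion gene of the intestinal brush border, followed by Prr15l (0.311). Pigr was most like Cdhr2 (0.318) and Lypd8 like Cdhr5 (0.303), protocadherin genes of the same border, and Slc51b came next for both (0.288 and 0.263). For Cyp2a5 the leading gene was Oit1 (0.266). For Wfdc2 (Cox6b1, 0.235), Reg3g (Nostrin, 0.199), Cyp2f2 (Fblim1, 0.184) and Bpifa1 (Pink1, 0.174) the highest values were weak, and in sparse counts these are not findings.

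Surface protein, which had no part in the choice of the genes, was compared between mature mTEC rich in any of the 8 genes (50 and 103 cells of the 16-week wells) and other mature mTEC (277 and 771). Values are log2(tag count scaled to the mean total + 1). The median of CD274 (PD-L1) was 4.44 and 4.45 on rich cells and 3.78 and 3.91 on the others, a difference of 0.66 and 0.54. Epcam was higher by 0.46 in both wells and CD270 (HVEM) by 0.28 and 0.20. CD40 differed by -0.29 and -0.39, CD54 by -0.21 and -0.54, and UEA1 by -0.24 and -0.25. In both wells 10 of 27 tags were higher and 6 lower on rich cells, and 11 had no common sign. Among the 10, CD9, CD49a, CD73, CD31 and MHCII were higher by 0.06 or less in each well. Among the 11, CD83, CD146, Ly6D, CD36, CD157 and CD300LG had a median of 0 in all groups and could show no sign. Among cells of at least 12000 UMIs, 34 and 70 rich against 69 and 144 others, 5 tags were higher in both wells. A cut at 20 UMIs gave 6.

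The Bpifa1-led cluster differed from mature mTEC in more of its surface. Sca1 was at 8.19 and 8.46 on it and at 4.69 and 4.76 on mature mTEC, a difference of 3.50 and 3.70. CD9 was higher by 3.86 and 1.90, Epcam by 1.73 and 1.03, Podoplanin by 1.31 and 1.18, and CD133 by 1.07 and 1.16. CD40 differed by -1.16 and -1.52 and MHCII by -1.02 and -1.37. Of the 27 tags, 13 were higher and 5 lower in both wells. These differences are between cells of 1 pool and have no test.

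Other genes of the same tissues were read from lists. Of 25 further airway secretory genes 12 were at least 2-fold higher in 16-week TEC and none lower, of 35 gut and mucosal barrier genes 21 and none, and of 32 transcription factors of mucosal epithelium 18 and none, beside the 18.4% of all genes. Among the airway genes Slpi, a protease inhibitor, was at 3.67 and 8.0 CPM in 1-week TEC and at 18.7 and 27.2 at 16 weeks, and Lcn2, which binds bacterial iron carriers, at 3.84 and 4.80 and then at 56.5 and 38.7. Cbr2, a carbonyl reductase of club cells, was at 318 and 210 and then at 236 and 250, with wells that overlapped. Scgb1a1 was at 4.06 and 5.94 and then at 8.21 and 23.8, and Tff2 at 6.36 and 2.06 and then at 4.38 and 8.88.

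Of the gut genes Fcgbp, a protein of the mucus gel, was at 116 and 88.7 in 1-week TEC and at 2867 and 2812 at 16 weeks, with 47.6 and 33.8 UMIs per positive mature mTEC. Saa3, an acute-phase protein gene, was at 18.6 and 13 and then at 104 and 164, the lysozyme genes Lyz1 and Lyz2 at 7.35 and 8.0 and then 84.6 and 98.4, and at 20 and 48.2 and then 148 and 158, and Nos2 at 6.28 and 11.1 and then at 67.3 and 64.7. Among the transcription factors Cdx1, of intestinal epithelium, had 85.8% of its 16-week TEC UMIs in mature mTEC and Spib, of microfold cells, 68.8%. Klf4 was at 120.1 and 123 CPM in 1-week TEC and at 332 and 358 at 16 weeks, and Sox9, which did not pass the 2-fold rule, at 105 and 122 and then at 200.3 and 183. The median number of UMIs per positive mature mTEC was 4.99 over the 8 genes, 3.16 over the airway list, 4.17 over the gut list, 1.92 over the transcription factors and 1.45 over all genes.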

How the data were processed

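CITE-seq libraries of thymic stroma were analysed from the deposited tables of 1 pool per age on 2 wells. The authors aligned reads to mm10 with STARsolo 2.7.9a and Ensembl gene models, kept cells of at least 2000 UMIs and deposited whole-number counts of UMIs per gene and cell, and of surface tags per cell, neither normalised. The labels and the methods name different versions of the reagent kit. Library and age were read from each cell name, and 55141 of 55487 identifiers matched a symbol. The 8 genes and all lists were chosen with earlier results of these data known, and they were left out of all clustering. The genes to be named were the 8 themselves, always, and from each list the 5 highest in 16-week mature mTEC, of which 1 is not reported here.

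Doublets were scored per library with scrublet (scanpy 1.11.5). The automatic limit marked 12 cells, so the highest scores were removed at 0.8% per 1000 cells. Cells were clustered on 30 principal components of 2000 variable genes with the Louvain method (igraph 0.11.9) on a graph of 10 shared neighbours, for TEC after aligning mutual nearest neighbours between libraries and between cells under and over 12000 UMIs. A cluster was named from at least 3 markers, each in at least 10% of its cells at no less than 0.25 of its highest cluster (0.1 over all cells), and this rule was refined after the clusters were seen. Epithelial clusters with a median under 3000 UMIs, 474 cells, were left out.

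Levels are summed UMIs of a gene over all UMIs of the cells, as counts-per-million (CPM). Exact Poisson and Clopper-Pearson intervals (95%) cover counting error only. A cell was rich at 10 UMIs of a gene. The 2-fold rule asked that both wells of an age lie at least 2-fold beyond both of the other, with sums under 3 counts set to 3, and the background is all genes with at least 10 UMIs. Thinned shares are expectations at 2000 UMIs. UMIs were counted at the 3′ end, so levels of different genes are not ranked. No p-value is given. The 2-fold rule was tested on simulated data, and TMM factors came from edgeR 4.0.16. Tag values were scaled to the mean total count of a cell. Motifs were searched in RefSeq promoters and names and positions taken from GENCODE M21. Alternatives covered doublets, shallow clusters, batch correction, neighbours, scaling, weights, thinning, tag gate, cut, background filter and each well, and shared barcodes, rich cells, the Saa3-led cluster and deep cells, which were added after seeing the data.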

Additional observations from a re-analysis of the deposited data

How the results depend on the processing

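Changes with age of the 8 genes kept their sign in all settings but one, the Saa3-led cluster alone, which gave -0.51 for Pigr, -0.81 for Muc13 and -0.28 for Reg3g (log2) and 0 genes past the 2-fold rule in place of 5. In that setting fewer cells were compared. Over all settings the values ran from 1.59 to 6.88 for Bpifa1, 0.06 to 1.16 for Wfdc2, 1.31 to 6.97 for Cyp2f2, 0.69 to 3.42 for Cyp2a5 and 2.13 to 4.14 for Lypd8. The median share of the top 1% of cells was 66%, and 50% after thinning, which removes UMIs from deep cells. Thinning left 0 genes at 3 UMIs per positive cell in place of 5, and the tag gate 3. The tag gate, which holds fewer cells, left 0 genes with most UMIs in mature mTEC in place of 5. No share of all genes stands beside the counts under thinning or in the tag gate. Tags higher on rich cells numbered 10, and 6 with the cut at 20 UMIs and 5 among deep cells. The median fibroblast level was 13.6%, and 35.7% without rich cells. Leaving out each well in turn gave 5 to 7 genes past the 2-fold rule, 54.0% to 70.2% in the top 1%, 5 to 7 genes at 3 UMIs per positive cell, 10 to 14 tags and a fibroblast level of 10.1% to 16.5%. The 2-fold rule gave 4 genes with TMM factors and with equal weight per cell. Without a filter on low genes the background shares were 13% higher and 2.68% lower with age, 34.3% mostly in mature mTEC and 3.77% at 3 UMIs per positive cell. With 20 neighbours 7 genes, Bpifa1 and Wfdc2 added, had most UMIs in mature mTEC. Settings on rich cells, the Saa3-led cluster and deep cells were chosen after seeing the data. No paired analysis was possible because replicate numbers name wells of 1 pool per age and no test was run. The precision is limited by few rich cells, by 67 and 52 cells of the Saa3-led cluster at 1 week, and by 1 pool per age.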

Other observations

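The 474 epithelial cells of shallow clusters (median 2421 UMIs), which entered the comparisons only in the alternative that keeps them, also held UMIs of these genes. Bpifa1 was at 64.3 and 73.7 CPM in the 16-week wells, from 17 and 37 UMIs, and at 27 and 3.43 at 1 week, from 10 and 1. Reg3g was at 220 and 444 at 16 weeks, Wfdc2 at 114 and 126, and Cyp2f2 at 7.57 and 9.96, from 2 and 5 UMIs.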
